A study of Homo sapiens with 6 samples.

Results

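NRF2, encoded by NFE2L2, is the transcription factor that switches on cell defence against oxidants and reactive chemicals. A list of 33 genes, made up of NFE2L2, its inhibitor KEAP1 and established NRF2 targets, was looked up by gene symbol among the probe sets of an Affymetrix array. For each gene the probe set that carries a single gene name and has the highest mean over the 6 arrays was taken. Of the 33 genes 29 were measured in this way, out of 18417 genes in all, and UGT1A6, PIR, FTH1 and NR0B1 had no such probe set and were not analysed here. The cells were A549, a human lung adenocarcinoma line, carried as stable cells of 2 kinds, control (3 arrays) and labelled H2AX knockdown (3 arrays). H2AX is the histone variant that is phosphorylated around DNA breaks. Both kinds were starved of serum overnight and then kept for 48 h with VP-16 (etoposide), which traps topoisomerase II on cut DNA, so the drug and the starvation are common to all 6 arrays and no untreated array was analysed here. The 3 arrays of a kind come from 3 independent experiments, per the series' design text. How many stable clones stand behind each kind is not given in the sources used here, nor is the method of knockdown.

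In unstressed cells KEAP1 holds NRF2 in the cytoplasm and hands it to a CUL3 ubiquitin ligase for destruction. Oxidants modify cysteines of KEAP1, NRF2 then escapes, pairs with a small MAF protein in the nucleus and binds antioxidant response elements near its targets. The targets make glutathione and thioredoxin, supply NADPH, reduce quinones and carbonyls, and handle heme and iron. A549 cells are known for a mutated KEAP1 that leaves NRF2 active without a stimulus, so high levels of these genes are a known trait of the line.

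The core of the antioxidant response element, TGACNNNGC, was searched on both strands in RefSeq promoter windows (GRCh38.p14) of 250 bases before to 50 bases after a start site. Windows were given for 22 of the 29 measured genes, and 8 of the 22 (36.4%) had at least 1 match, against 18.3% of the 14239 tested genes with a window. Counted by window, 9 of 28 windows of the measured genes (32.1%) and 13.3% of all 35116 windows held it. The stretches below, each of 29 bases on the strand of the gene, show the element beside 5 genes of the glutathione, thioredoxin and NADPH steps and of KEAP1 itself, with the 9 bases of the match in capitals. They were chosen after the matches were seen. A match to the core can also be part of the AP-1 motif TGACTCA, as it is in ME1.
GCLM, chr1:93909446-93909474, minus strand: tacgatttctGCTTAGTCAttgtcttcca
GPX2, chr14:64942849-64942877, minus strand: acctgtttttGCTAAGTCAtcctggggat
TXNRD1, chr12:104215670-104215698, plus strand: acacgggctaTGACTTCGCtgttgtcacc
ME1, chr6:83431170-83431198, minus strand: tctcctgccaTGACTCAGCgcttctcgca
KEAP1, chr19:10502784-10502812, minus strand: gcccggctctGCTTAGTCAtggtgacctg
The first base of the match lay 34 bases before the start site in GCLM, 122 in GPX2, 99 in TXNRD1, 137 in ME1 and 31 in KEAP1. In GCLM, GPX2 and KEAP1 the element reads on the opposite strand, where the capitals run from GC to GTCA. Other matches stood in the windows of CBR1, EPHX1 and PGD, and further ones in TXNRD1, ME1 and KEAP1.

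The arrays gave a few facts that bear on everything below. The targeted gene did not show the labelled knockdown: H2AX (probe set 7952179) had log2 signals of 5.11, 5.27 and 5.26 in the controls and 5.28, 5.17 and 5.49 in the knockdown-labelled arrays, which puts the difference at 0.10 (95% interval −0.25 to 0.45, adjusted p = 0.823 in limma). H2AX was at 0.27 after quantile normalization and at 0.30 after cyclic loess (limma unadjusted p = 0.111 and 0.089). A 2-sided exact permutation test of the deposited values gave p = 0.4, where 0.1 is the smallest p that 3 against 3 arrays can give. Differences are therefore given as the knockdown-labelled arrays minus the controls and not as effects of a measured loss of H2AX. The keratin genes KRT8 and KRT18, markers of epithelium, were bright in the controls (9.69 and 8.67), while EPCAM, another epithelial marker, was dim (2.42). Markers of fibroblasts, blood and immune cells and endothelium ranged over 1.69 to 5.15, 2.13 to 4.19 and 2.42 to 3.65. Of the 6 fibroblast markers all had a difference above 0, with array means of 3.14 to 3.41 in the controls and 3.38 to 3.81 in the knockdown-labelled arrays, 0 past the threshold and 1 (LUM) at an unadjusted p under 0.05 (limma). Over all genes 51.5% were below 0. In the dimmest quintile of mean signal, which holds DCN and LUM, it was 18.3%. It was 51.4% in the middle quintile, which holds COL1A2, COL3A1 and PDGFRB, and 85.3% in the brightest, which holds COL1A1. Below 0 were 1 of 5 blood and immune, 1 of 4 endothelial and 3 of 5 epithelial markers. The part of these markers in the results was not tested. Knockdown-labelled replicate 1 stood apart, with the narrowest spread of signals over genes (SD 1.29, against 1.41 to 1.56 in the other arrays).

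The NRF2 genes gave bright signals in both kinds of cell. The mean over the 6 arrays put 27 of the 29 in the brightest quintile of all genes tested and 19 at or above the 95th percentile, with a median percentile of 96.9. The ferritin light chain FTL lay at the 99.8th percentile, the pentose phosphate enzyme PGD and the aldo-keto reductase AKR1C2 at the 99.7th, and the quinone reductase NQO1 at the 99.6th. Only GCLM (63.9th) and CBR3 (57.6th) lay outside the brightest quintile. A percentile places a probe set's signal among the others on these arrays and is not an amount of RNA, since probe sets differ in how well they bind. No cells with unmutated KEAP1 were analysed here, so the part of the mutation in these signals was not tested.

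**Figure D1:**
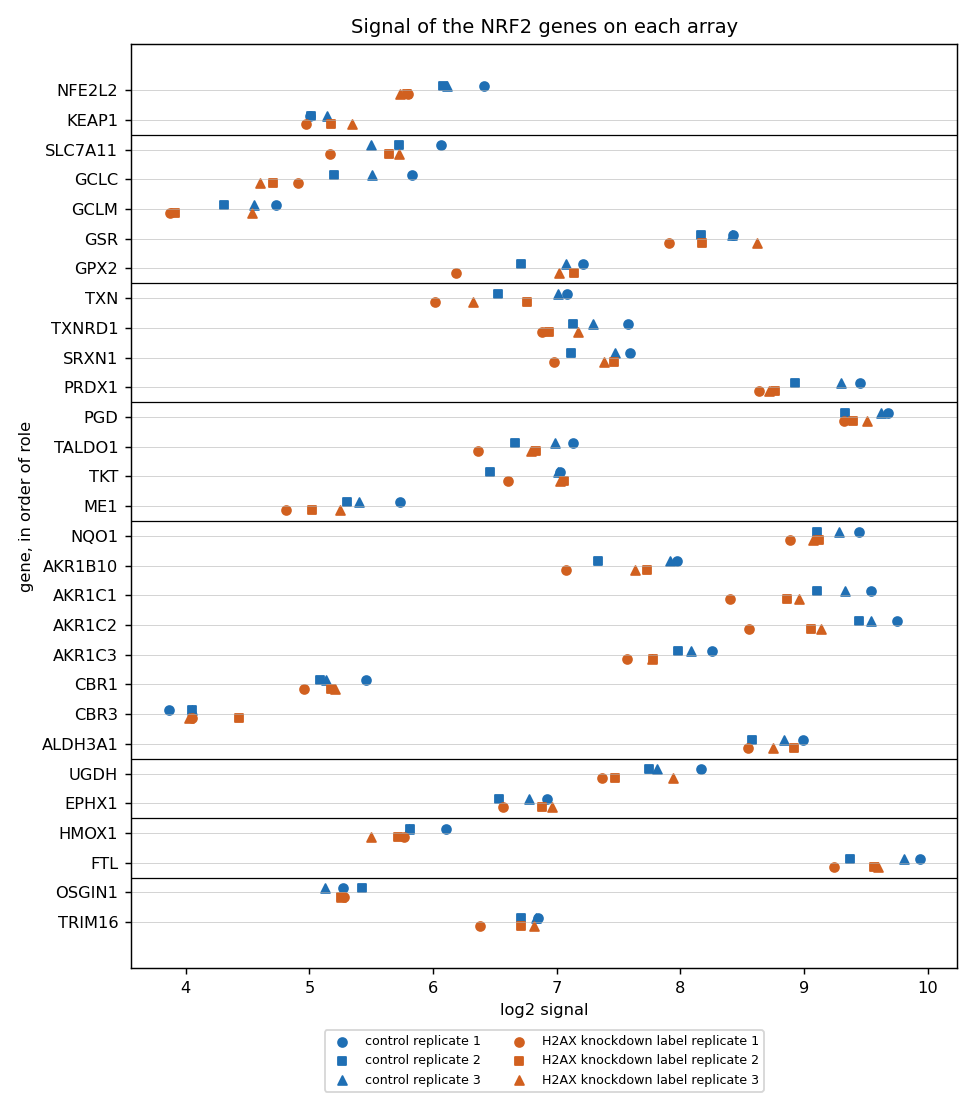
Log2 signal of the 29 measured NRF2 genes on each of the 6 arrays, grouped by role with lines between roles; blue marks are the 3 controls, orange marks the 3 arrays labelled H2AX knockdown, and the marker shape gives the replicate number. Knockdown-labelled replicate 1 (orange circles) is the lowest of the 6 arrays for 22 of the 29 genes, and control replicate 1 (blue circles) the highest for 23.

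None of the 29 genes passed the threshold between control and knockdown-labelled cells (limma, adjusted p under 0.05 over all genes; 0 lower and 0 higher), where 0.0271% of all genes were called lower and 0.00543% higher. The adjusted p of the 29 ran from 0.224 to 0.987. At an unadjusted p under 0.05, 8 were below the controls and 0 above, a share of 27.6%, where 8.38% of all genes were below and 3.78% above. Among all genes of the brightest quintile, 22.9% were below at that level. The 3 knockdown-labelled arrays lay under all 3 controls for 8 genes, against 9.82% of all genes and 23.2% of the brightest quintile, and over them for 0, against 7.17%. A bulk culture gives one signal, so fewer cells carrying a transcript and less of it per cell cannot be told apart.

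The median log2 difference of the 29 genes was −0.25, with 25 below 0 (86.2%, against 51.5% of all genes), while it turned to 0.02 after quantile normalization and 0.04 after cyclic loess. Over all genes the median was −0.01. In the brightest quintile, where 27 of the 29 lie, it was −0.25 over all 3683 genes and −0.25 over the 27, and 85.3% of all genes there and 24 of the 27 were below 0. Of the 27 genes 15 lay at or under the midpoint of that quintile, 3 among its lowest 10% (GCLC, AKR1C2 and AKR1C1) and 3 among its highest 10% (KEAP1, TKT and EPHX1). In the deposited values the median of the list thus differed by less than 0.01 from that of all genes of the quintile. The 27 genes lay on both sides of that median, from −0.77 to 0.11, where all genes of the quintile ran from −1.45 to 1.14. After quantile normalization the medians were 0.022 for the 27 and −0.022 for the quintile, and after cyclic loess 0.042 and −0.002.

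**Figure D2:**
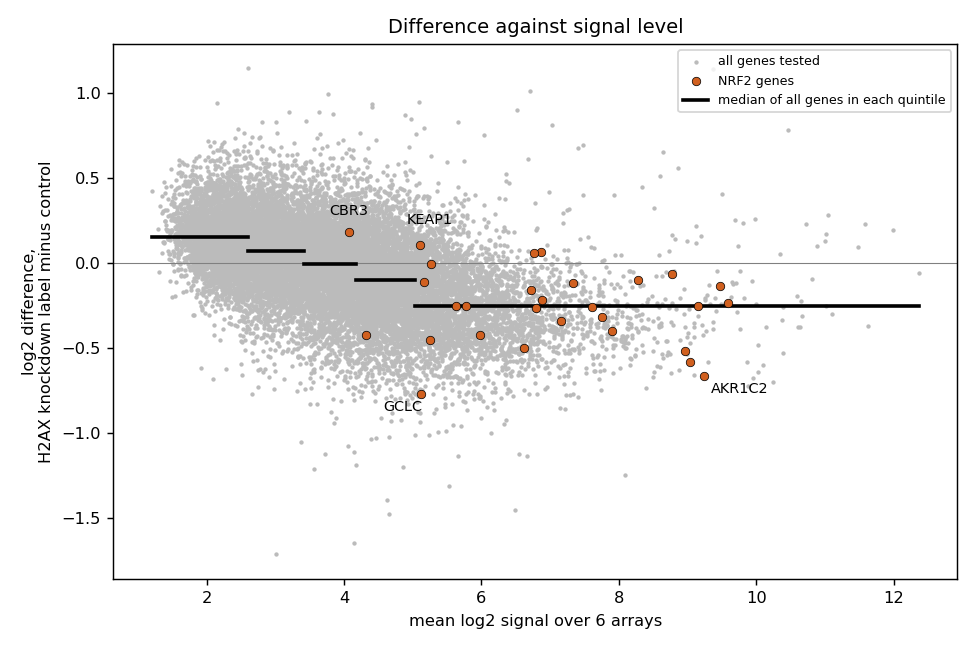
Each point is a gene, with its mean log2 signal over the 6 arrays on the horizontal axis and its log2 difference, knockdown-labelled minus control, on the vertical axis; orange points are the 29 NRF2 genes and black bars the median of all genes in each quintile of signal. The bars go from 0.15 in the dimmest quintile to −0.25 in the brightest, and the orange points lie on both sides of the last bar, with GCLC at −0.77 and KEAP1 at 0.11.

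Single arrays carried much of the shift. Relative to each gene's control mean, the 29 genes had a median of 0.20, −0.20 and 0.03 in control replicates 1, 2 and 3, and −0.45, −0.14 and −0.05 in knockdown-labelled replicates 1, 2 and 3. Control replicate 2 thus lay under knockdown-labelled replicates 2 and 3. The median of the brightest quintile of all genes followed a similar course, at 0.14, −0.15 and 0.01 in the controls and −0.45, −0.15 and −0.13 in the others. Knockdown-labelled replicate 1 was the lowest of the 6 arrays for 22 of the 29 genes and for 63.6% of the brightest quintile. The median difference of the 29 was −0.12 when that array was left out, and −0.15 when control replicate 1 was.

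**Figure D3:**
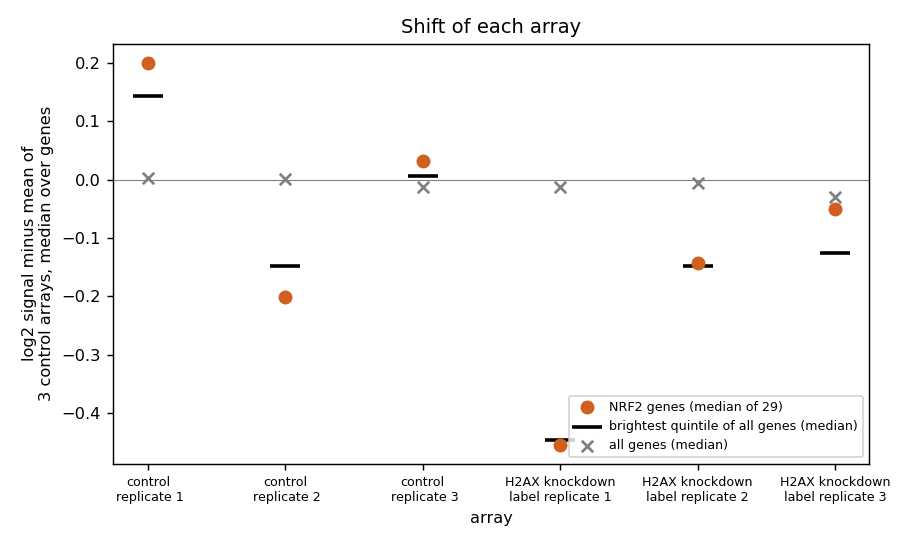
For each array, the median over genes of the log2 signal minus that gene's mean in the 3 controls; orange points are the 29 NRF2 genes, black bars the brightest quintile of all genes and grey crosses all genes. The orange point of knockdown-labelled replicate 1 is at −0.45 beside a black bar at −0.45, and the crosses lie between −0.03 and 0.00.

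The 2 regulators had differences of opposite sign. NFE2L2 (probe set 8056977), the factor itself, read 6.41, 6.08 and 6.11 in control replicates 1, 2 and 3 and 5.80, 5.78 and 5.73 in the knockdown-labelled ones. The groups did not overlap, and the knockdown-labelled values lay close together while control replicate 1 was the highest. The log2 difference was −0.43 ± 0.16 (SE), or 74.4% of the control signal (limma unadjusted p = 0.0198, adjusted p = 0.35), and it was −0.18 after quantile normalization, where the groups overlapped. KEAP1 (probe set 8034034), the inhibitor, read 5.01, 5.02 and 5.15 in the controls and 4.97, 5.17 and 5.34 in the knockdown-labelled arrays. Its groups overlapped, with knockdown-labelled replicate 1 the lowest of all arrays and replicate 3 the highest. KEAP1 had a difference of 0.11 (95% interval −0.24 to 0.46, adjusted p = 0.811 in limma). It was above 0 in all 15 alternatives, from 0.02 to 0.28. After quantile normalization KEAP1 was at 0.26 (limma unadjusted p = 0.0891, adjusted p = 0.674), and the knockdown-labelled arrays lay over all controls.

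Glutathione genes held the largest difference of the 29. GCLC (probe set 8127158), the catalytic subunit of glutamate-cysteine ligase, which catalyses the rate-limiting step of glutathione synthesis, read 5.83, 5.20 and 5.51 in the controls and 4.91, 4.71 and 4.60 in the knockdown-labelled arrays. All 3 knockdown-labelled values lay under the lowest control, and the order differed from that of most members, since replicate 1 was here the highest of the 3. The difference was −0.77 ± 0.19 (SE, n = 3 each), with a 95% interval of −1.18 to −0.37, or 58.5% of the control signal (limma unadjusted p = 0.00115, adjusted p = 0.224). In the brightest quintile 1.33% of genes had a difference as low. GCLC kept its sign in all 15 alternatives, from −0.93 to −0.58, each time at an unadjusted p under 0.05. Its adjusted p was 0.027 with array weights and 0.928 at the other end of the alternatives.

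GCLM (probe set 7917779) encodes the modifier subunit that partners GCLC. It read 4.73, 4.31 and 4.55 in the controls and 3.87, 3.91 and 4.54 in the knockdown-labelled arrays, a difference of −0.42 ± 0.20 (SE; limma adjusted p = 0.423). The groups overlapped through knockdown-labelled replicate 3, which sat among the controls. The other 3 genes of this step had differences nearer 0 and overlapping groups. SLC7A11, the cystine importer that brings in the precursor, had a difference of −0.25 (95% interval −0.69 to 0.18), and of −0.05 after quantile normalization. GSR, which turns oxidised glutathione back to the reduced form, was at −0.10 (−0.52 to 0.32), with 0.22 after quantile normalization. GPX2, a glutathione peroxidase, was at −0.22 (−0.73 to 0.29), and it had the widest standard error of the 29 (0.24), with 6.18 in knockdown-labelled replicate 1 against 7.14 and 7.01 in the others. Without that array GPX2 was at 0.08 and GSR at 0.06.

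All 4 genes of the thioredoxin system had a difference below 0, with a median of −0.42. They lie in the brightest quintile, where 85.3% of all genes were below 0 and the median was −0.25. PRDX1 (probe set 7915733), a peroxiredoxin that destroys hydrogen peroxide, read 9.45, 8.92 and 9.30 in the controls and 8.63, 8.76 and 8.71 in the knockdown-labelled arrays. Its groups did not overlap, though control replicate 2 lay only a little above the knockdown-labelled values. The difference was −0.52 ± 0.17 (SE; limma unadjusted p = 0.0103, adjusted p = 0.312), but −0.24 with overlapping groups after quantile normalization (unadjusted p = 0.118). TXN (probe set 8163185), the thioredoxin that peroxiredoxins draw on, read 7.08, 6.52 and 7.01 in the controls and 6.02, 6.76 and 6.32 in the knockdown-labelled arrays. Control replicate 2 lay under knockdown-labelled replicate 2, so the groups overlapped. The difference of TXN was −0.50 ± 0.21 (SE; limma unadjusted p = 0.0352, adjusted p = 0.384), and −0.22 after quantile normalization (unadjusted p = 0.226). TXNRD1, the reductase that recharges thioredoxin, was at −0.34 ± 0.17 (SE), and at −0.04 after quantile normalization. SRXN1, the sulfiredoxin that rescues overoxidised peroxiredoxins, was at −0.12 ± 0.19 (SE), and at 0.18 after quantile normalization.

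Genes listed under the supply of NADPH, the reducing agent behind glutathione and thioredoxin, had differences of −0.45 to 0.06. Of these 4 genes 3 were below 0. ME1 (probe set 8127854), the cytosolic malic enzyme, read 5.73, 5.30 and 5.40 in the controls and 4.81, 5.02 and 5.25 in the knockdown-labelled arrays. The groups did not overlap, but knockdown-labelled replicate 3 came within a small step of control replicate 2. The difference was −0.45 ± 0.18 (SE), or 73.1% of the control signal (limma unadjusted p = 0.0258, adjusted p = 0.365). After quantile normalization ME1 was at −0.28 with overlapping groups. The 3 pentose phosphate enzymes had smaller ones. TALDO1, transaldolase, was at −0.27 (95% interval −0.67 to 0.14) and PGD, phosphogluconate dehydrogenase, at −0.14 (−0.49 to 0.22). TKT, transketolase, was at 0.06 (−0.37 to 0.49) and turned to between −0.12 and −0.002 when control replicate 2 or knockdown-labelled replicate 2 or 3 was left out. After quantile normalization TKT was at 0.35 (limma unadjusted p = 0.0353, adjusted p = 0.633). In the deposited values all 3 had overlapping groups. After quantile normalization the knockdown-labelled arrays lay over all controls for TKT, and after cyclic loess for TKT and PGD.

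Of the 8 enzymes that reduce quinones or reduce or oxidise carbonyls and aldehydes, the 3 members of the AKR1C cluster, which act on steroids and reactive carbonyls, had groups that did not overlap. AKR1C2 (probe set 7931832) read 9.75, 9.44 and 9.54 in the controls and 8.55, 9.06 and 9.14 in the knockdown-labelled arrays. The difference was −0.66 ± 0.19 (SE), with a 95% interval of −1.07 to −0.26, or 63.2% of the control signal (limma unadjusted p = 0.00351, adjusted p = 0.277). Every knockdown-labelled array lay under every control, with replicate 1 far under the others. AKR1C1 (probe set 8180376) read 9.54, 9.11 and 9.33 in the controls and 8.40, 8.86 and 8.96 in the knockdown-labelled arrays, a difference of −0.58 ± 0.19 (SE; limma adjusted p = 0.305). A second probe set of AKR1C1 (7925918) gave means of 5.48 and 5.14, a difference of −0.34, and there the groups overlapped. AKR1C3 (probe set 7925929) read 8.25, 7.98 and 8.09 in the controls and 7.57, 7.78 and 7.77 in the others, a difference of −0.40 ± 0.16 (SE; limma adjusted p = 0.365). The transcripts of this cluster are closely alike, so the gene behind each signal is uncertain and the 3 values may not be separate measurements. Without knockdown-labelled replicate 1 AKR1C2 was at −0.48 and AKR1C1 at −0.41. After quantile normalization AKR1C2, AKR1C1 and AKR1C3 were at −0.45, −0.32 and −0.09.

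The other 5 enzymes of this kind had overlapping groups in the deposited values. NQO1 (probe set 8002303), the quinone reductase by which NRF2 activity is often judged, read 9.44, 9.10 and 9.28 in the controls and 8.88, 9.12 and 9.07 in the knockdown-labelled arrays. Control replicate 2 and knockdown-labelled replicate 2 had nearly the same value, and only knockdown-labelled replicate 1 stood clearly under the controls. NQO1 had a difference of −0.25 (95% interval −0.61 to 0.10, adjusted p = 0.539 in limma), and of 0.04 after quantile normalization. AKR1B10, an aldo-keto reductase that acts on retinal and other aldehydes, was at −0.26 (−0.73 to 0.21), and 0.05 after quantile normalization. ALDH3A1, an aldehyde dehydrogenase, was at −0.06 (−0.44 to 0.31), and 0.19 after quantile normalization, where the knockdown-labelled arrays lay over all controls. The carbonyl reductases CBR1 and CBR3 were at −0.11 (−0.48 to 0.25) and 0.18 (−0.18 to 0.55), and CBR1 turned to 0.06 after quantile normalization.

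In the deposited values the remaining targets gave no unadjusted p under 0.05 (limma). HMOX1 (probe set 8072678), heme oxygenase, read 6.11, 5.81 and 5.80 in the controls and 5.76, 5.71 and 5.49 in the knockdown-labelled arrays. Its groups did not overlap by a narrow margin, and the difference was −0.25 ± 0.17 (SE; limma unadjusted p = 0.153, adjusted p = 0.546). After quantile normalization HMOX1 was at −0.01 and its groups overlapped. FTL, the ferritin light chain that stores iron, was at −0.24 ± 0.19 (SE), with overlapping groups, and at −0.10 after quantile normalization. UGDH, which makes the UDP-glucuronic acid used in conjugation, was at −0.32 ± 0.19 (SE), and at −0.03 after quantile normalization. EPHX1, a microsomal epoxide hydrolase, was at 0.06 ± 0.18 (SE), at −0.05 with control replicate 2 left out and −0.02 with knockdown-labelled replicate 3 left out, and at 0.35 after quantile normalization (limma unadjusted p = 0.0199, adjusted p = 0.593). TRIM16, a ubiquitin ligase of the tripartite motif family, was at −0.16 ± 0.17 (SE), and 0.13 after quantile normalization. OSGIN1, an oxidative stress-induced growth inhibitor, was at −0.01 ± 0.16 (SE), and above 0 (0.01 to 0.19) with array medians subtracted, array weights, quantile normalization, cyclic loess or control replicate 2 left out. Its 3 knockdown-labelled values, 5.28, 5.26 and 5.26, lay inside the range of the controls, 5.12 to 5.43.

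**Figure D4:**
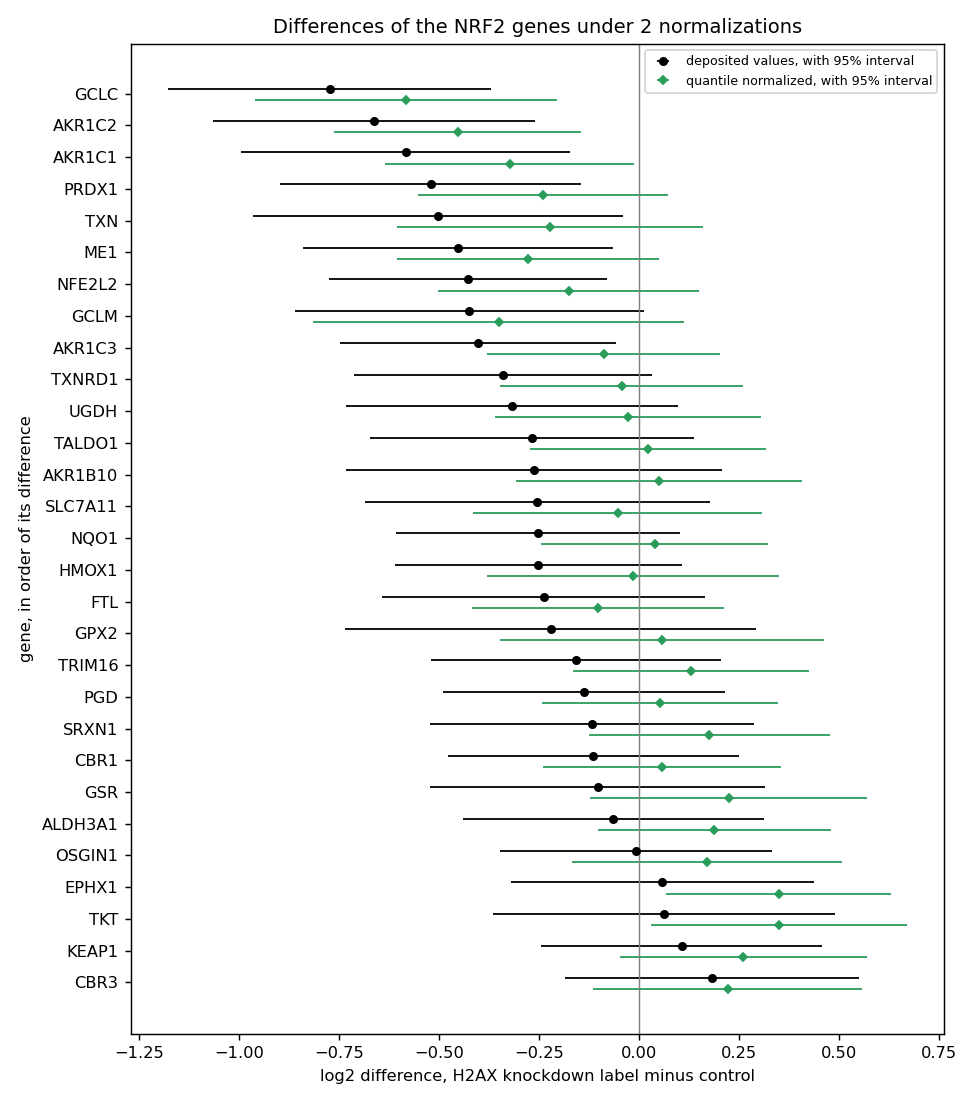
Log2 difference, knockdown-labelled minus control, of each of the 29 genes with its 95% interval from limma, for the deposited values (black circles) and after quantile normalization of them (green diamonds). The circles run from −0.77 for GCLC to 0.18 for CBR3 with 25 below 0, and of the diamonds 14 are below 0 and 15 above.

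Between-array normalization moved the list but left some differences among its members. After quantile normalization 0 of the 29 genes passed the threshold in limma, and at an unadjusted p under 0.05 there were 3 below the controls (GCLC, AKR1C2 and AKR1C1) and 2 above (TKT and EPHX1), where 4.18% of all genes were below and 3.56% above. The groups then did not overlap for 3 of the 29 genes below, against 6.64% of all genes. Above the controls this held for 6 of the 29 (KEAP1, SRXN1, TKT, ALDH3A1, EPHX1 and TRIM16), against 6.96%. GCLC was at −0.58 (95% interval −0.96 to −0.21, adjusted p = 0.529 in limma) and AKR1C2 at −0.45 (−0.76 to −0.14, adjusted p = 0.543). After cyclic loess they were at −0.60 and −0.37. There the groups did not overlap for 4 of the 29 genes below, against 6.8% of all genes, and for 9 above, against 6.91%. After either normalization these shares were not computed for the brightest quintile, where most of the 29 genes lie. The counts therefore have no background of like signal beside them. GCLC and AKR1C2 were the members with an unadjusted p under 0.05 in all 15 alternatives, and AKR1C1 had one in 14, NFE2L2 and PRDX1 in 12.

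A second list held 44 further genes of the pathway, namely partners and rivals of NRF2, its ligases and other known targets, and 41 of them were measured. Of these 0 passed the threshold in limma, and at an unadjusted p under 0.05 there were 6 below the controls (14.6%, against 8.38% of all genes) and 1 above (2.44%, against 3.78%). Their median was −0.17, with 34 below 0 (82.9%, against 51.5% of all genes). Of the 41 genes 21 lay in the brightest quintile, where 22.9% of all genes were below the controls at that level and 85.3% were below 0. The knockdown-labelled arrays lay under all controls for 8 (19.5%, against 9.82% of all genes and 23.2% of the brightest quintile). They lay over all controls for 1, NFE2 (2.44%, against 7.17% of all genes). The lowest difference was that of ALDH1A1, a retinaldehyde dehydrogenase, which read 9.11, 8.81 and 8.81 in the controls and 8.16, 8.24 and 8.49 in the knockdown-labelled arrays (−0.61 ± 0.17, SE; limma adjusted p = 0.273). CUL3, the scaffold of the ligase that KEAP1 serves, read 6.20, 5.88 and 5.82 against 5.11, 5.37 and 5.76 (−0.56 ± 0.19, SE; limma adjusted p = 0.322). MGST1, a microsomal glutathione transferase, was at −0.49 ± 0.20 (SE; limma adjusted p = 0.367). These 3 had no overlap between groups, in MGST1 by a narrow margin (7.744 in control replicate 2, 7.740 in knockdown-labelled replicate 3). After quantile normalization ALDH1A1 was at −0.33, still with no overlap, while CUL3 was at −0.35 and MGST1 at −0.20, both with overlapping groups. MGST1 was at −0.30 when control replicate 1 was left out. All 8 genes for ligases and KEAP1 binding proteins, CUL3 among them, had a difference below 0, with a median of −0.25. The brightest quintile, which holds part of these 8, had the same median over all its genes, with 85.3% below 0. At the other end CES1, a carboxylesterase, read 4.26, 5.04 and 4.71 in the controls and 6.17, 4.89 and 5.22 in the knockdown-labelled arrays, a difference of 0.76 ± 0.29 (SE; limma unadjusted p = 0.0204, adjusted p = 0.353). The groups of CES1 overlapped, and its highest value was that of knockdown-labelled replicate 1, the array that was lowest for most NRF2 genes. With that array left out CES1 was at 0.38 (limma unadjusted p = 0.106). NFE2, the blood cell relative of NRF2, was at 0.36 and GSTM2, a glutathione transferase, at 0.33, both at dim signals (control means of 2.69 and 3.40). GSTM2 has close paralogs, so the gene behind its signal is uncertain.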

How the data were processed

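The authors deposited log2 signals per probe set; the submitters' processing notes name RMA, with no version given in the sources used here; the log2 scale was taken from the values (0.611 to 13.2). The arrays did not share one distribution (SD over all probe sets 1.60 to 1.86). Of 33297 probe sets 19460 had 1 gene in the platform annotation, 1754 several and 12083 none, and the last 2 kinds were not named. The probe set with the highest mean was kept for each of 18417 genes, with no filter.

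The test was limma's (version 3.58.1 under R 4.3.3; lmFit, then eBayes), knockdown-labelled minus control, 3 against 3 arrays, with no covariate, 2-sided, and p-values were adjusted by Benjamini-Hochberg over all genes at a threshold of 0.05. Quintiles are of the mean signal. The number of arrays limits the precision. On arrays simulated for this comparison (18417 genes) the test found 61% of genes shifted by 1 log2 unit and 97% of those at 2. Of its 165 calls 7 were false. Smaller shifts were not simulated, and the 29 NRF2 genes had differences of −0.77 to 0.18. The real arrays gave 6 calls in all, and the adjusted threshold is stricter when calls are few. These rates therefore do not give the power of the test for the NRF2 genes. The members, lists and tests were chosen with earlier results of these data known. All 33 members are named, with H2AX and the 3 lowest and 3 highest of the second list; any other gene was named with its values known. The 15 alternatives cover normalization, centring, filtering, probe sets, variance, array weights, the replicate block and each array left out. Figures were drawn with matplotlib 3.10.9.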

Additional observations from a re-analysis of the deposited data

How the results depend on the processing

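The count of NRF2 genes past the threshold was 0 in 14 of the 15 alternatives and 1 with array weights, where GCLC (−0.82, limma adjusted p = 0.027) passed and control replicate 3 had a weight of 5.03 against 0.41 to 1.22 for the others. The median of the 29 genes turned from −0.25 to 0.022 (quantile normalization) and 0.042 (cyclic loess), and ran from −0.37 to −0.12 with 1 array left out. The second list had 0 genes past the threshold, H2AX was not past it, and the median percentile of the NRF2 signals moved by less than 1, in each alternative run. The count over all genes, 6 in limma, was 3 with the replicate block, 16 among genes at or above the median signal, 0 after quantile normalization (1425 at an unadjusted p under 0.05) and after cyclic loess (1486), 3 with a gene's probe sets averaged and 191 with array weights. Left out singly, control replicates 1 and 3 and knockdown-labelled replicates 1 and 2 each gave 0 (944 to 2296 genes at an unadjusted p under 0.05), control replicate 2 gave 1 and knockdown-labelled replicate 3 gave 9. The deviations of same-numbered arrays from their group means correlated at −0.31, −0.03 and 0.07. Shifts of whole arrays enter these values, so they cannot tell whether same-numbered arrays came from the same experiment. The replicate block changed no call of an NRF2 gene, with 7 in place of 8 at an unadjusted p under 0.05.

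Of the 29 genes 14 kept their sign in all 15 alternatives. The others turned as follows, after quantile normalization and cyclic loess in that order: GSR 0.22 and 0.21, GPX2 0.057 and 0.092, SRXN1 0.18 and 0.20, PGD 0.053 and 0.15, TALDO1 0.022 and 0.042, NQO1 0.039 and 0.043, AKR1B10 0.049 and 0.061, CBR1 0.059 and 0.069, ALDH3A1 0.19 and 0.24, OSGIN1 0.17 and 0.19, TRIM16 0.13 and 0.15. UGDH (0.0043) and FTL (0.045) turned after cyclic loess, and OSGIN1 also with array medians subtracted (0.0091) and array weights (0.092). With 1 array left out the lowest and highest values were −0.30 and 0.060 for GSR, −0.40 and 0.077 for GPX2, −0.26 and 0.029 for SRXN1, −0.12 and 0.21 for TKT, −0.18 and 0.0016 for CBR1, −0.18 and 0.033 for ALDH3A1, −0.048 and 0.18 for EPHX1, and −0.083 and 0.070 for OSGIN1. None of these genes passed the adjusted threshold in any of the 15 alternatives, though after quantile normalization the 95% intervals of EPHX1 (0.07 to 0.63) and TKT (0.03 to 0.67) lay above 0. The cause of the turns was not tested.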
